A study of Mus musculus with 9 samples.

Results

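The transcriptome described here is that of control tibialis anterior (TA) muscle at P28, on the 3 arrays that the labels call control, out of 9 arrays in the series. All 22206 gene rows of each array were used, chosen as the rows of the deposited table that do not belong to control probes. The TA is a fast muscle of the lower leg, and each array holds the total RNA of 1 whole TA from 1 mouse, hybridised to a Clariom S Mouse array. Control replicates 1 and 6 carry 1 LacZ allele and 1 floxed (fl) allele of Mymk, and control replicate 2 carries fl on both chromosomes. Mymk encodes Myomaker, a protein of the cell surface without which progenitors do not fuse. All 3 control mice carry 1 copy of the mTmG reporter, a fluorescent membrane protein that changes colour after Cre acts. None carries Pax7creER, so this Cre did not delete their floxed alleles. The labels do not say whether the LacZ allele of replicates 1 and 6 makes Myomaker. The labels give 233 nuclei per myofiber for the control group, a number counted in another muscle, the extensor digitorum longus.

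The other 6 mice carry Pax7creER, which drives a tamoxifen-dependent Cre in the satellite cells, stem cells that add nuclei to fibers. Tamoxifen was given at P0 to the 3 Δ1w mice and at P6 to the 3 Δ2w mice, and all 9 muscles were taken at P28. Δ1w replicate 5 and all 3 Δ2w mice are LacZ/fl, Δ1w replicates 1 and 8 are fl/fl, and mTmG is recorded in all of them except Δ1w replicate 8. For the controls the labels record no tamoxifen, while the methods describe it for every mouse. A number that opens each sample name, and that the labels do not explain, is shared by control replicates 1 and 6 and the Δ2w mice. It differs for control replicate 2, so the allele of Mymk and this number cannot be told apart among the controls. The Δ1w mice carry numbers that no control carries. A difference between control and Δ1w muscle therefore cannot be told apart from a difference in this number.

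Skeletal muscle builds its sarcomeres, calcium stores and energy supply from families of closely related genes, of which fast fibers, slow fibers, heart and nonmuscle cells each use different members. Fast fibers contract quickly on myosins IIa, IIx and IIb, pump calcium with SERCA1 and make ATP largely from glycogen and phosphocreatine. Slow fibers use the type I myosin, SERCA2 and more fat oxidation. A whole muscle also holds endothelium, fibroblasts, nerve, tendon and resident immune cells.

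Signals are log2 values summarised and normalized by the authors, and values after ± are SDs over the 3 control arrays (n = 3). A gene row was called above background when its signal exceeded the 95th percentile of the 5222 negative control rows of the same array, on all 3 control arrays. This limit lay at 9.91, 10.14 and 9.80 on control replicates 1, 2 and 6. Of the 22206 rows, 3952 were above background on all 3 arrays, which is 17.8% of them, 441 on 2 arrays, 437 on 1 and 17376 on 0. Receptors of smell, pheromone and taste cells, which muscle is not known to use, served as a reference for rows of silent genes. Of 1449 such rows 0 were above background on any control array, and their median signal was 4.34. The limit is strict, because the negative control rows spread widely and reach 13.8 to 14.1 at their 99th percentile, so a gene below it is only not well above background. The genes nearest to the limit on the inside were Arhgef10l, Ptdss2 and Wipi1, and on the outside Hk1, Rhobtb2 and Ubxn6. Probes of different genes are not calibrated to each other, so the order of signals is not an order of transcript numbers.

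**Figure D1:**
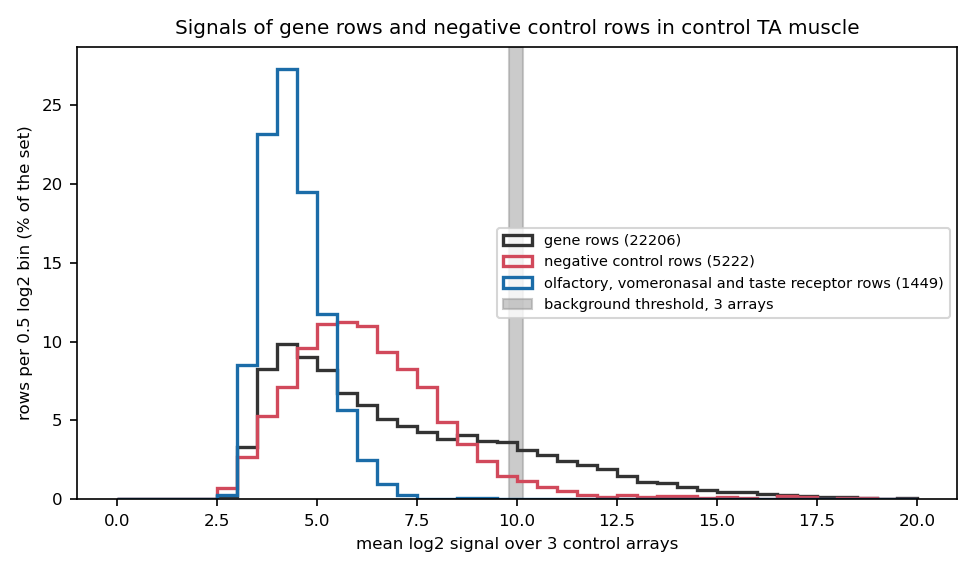
Share of rows (%, y axis) by mean log2 signal over the 3 control arrays (x axis, bins of 0.5) for 22206 gene rows, 5222 negative control rows and 1449 receptor rows, with the background limits of the 3 arrays as a grey band. The receptor rows lie below the band, and the tail of the negative control rows runs through it.

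The arrays resembled each other closely. Pearson's r across gene rows was 0.989 to 0.990 for the 3 pairs of control arrays, as a description over genes that share the arrays. The median difference between 2 arrays was 0.245 to 0.267 on the log2 scale, and the median SD of a row above background was 0.18. The 100 brightest rows held 45.6% to 46.7% of the summed linear signal of an array. At the top the arrays stopped separating genes, since 11 rows lay within 0.1 of the highest mean, 19.92, so the order of genes there was not read. Control replicate 6 stood apart in signals of bone and fat and in Y-linked genes, and control replicate 2 in most glucocorticoid targets and in single genes such as Pdk4, which are given with the counts that result without each array.

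The brightest named genes were those of the fast contractile machine and its fuel supply. The 20 highest mean signals of rows with a symbol belonged to Myl1, Atp2a1, Acta1, Myh8, Myh4, Tpm1, Tpm2, Aldoa, Cox7c, Mylpf, Pygm, Pvalb, Gapdh, Cox6a2, Mb, Atp5b, Casq1, Tnni2, Actn3 and Hspb6. Myl1, Mylpf, Acta1, Myh4, Tpm1, Tpm2, Tnni2 and Actn3 encode proteins of the sarcomere. Atp2a1 encodes SERCA1, the fast calcium pump, Pvalb encodes parvalbumin, a soluble calcium buffer, and Casq1 encodes the calcium store protein calsequestrin. Aldoa, Gapdh and Pygm belong to glycolysis and glycogen breakdown, Cox7c, Cox6a2 and Atp5b to mitochondrial respiration, and Mb is myoglobin, which binds oxygen. The markers given for the tissue were all above background, with Myh4 at 19.81, 19.83 and 19.84, Myh1 at 18.71, 18.45 and 18.57, Acta1 at 19.90, 19.93 and 19.93, and Atp2a1 at 19.90, 19.93 and 19.93 on control replicates 1, 2 and 6.

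Promoters of the myosins and of actin are shown because these genes sit at the top of the array in fast muscle, except Myh7, the slow gene of the same family, which is shown against them. Each is the 250 bases before a RefSeq transcript start in GRCm38.p6, on the strand of the gene. Capitals mark the letters TATAAA on that strand, the CArG box, which serum response factor binds, and the MEF2 site, which Mef2 factors bind, both searched on each strand.
Acta1, chr8:123894776-123895025, minus strand: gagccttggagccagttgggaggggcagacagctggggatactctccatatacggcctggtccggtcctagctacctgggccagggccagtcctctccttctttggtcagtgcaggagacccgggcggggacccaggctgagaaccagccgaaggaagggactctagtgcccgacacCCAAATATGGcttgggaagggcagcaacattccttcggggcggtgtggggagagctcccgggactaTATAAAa
Myh4, chr11:67237562-67237811, plus strand: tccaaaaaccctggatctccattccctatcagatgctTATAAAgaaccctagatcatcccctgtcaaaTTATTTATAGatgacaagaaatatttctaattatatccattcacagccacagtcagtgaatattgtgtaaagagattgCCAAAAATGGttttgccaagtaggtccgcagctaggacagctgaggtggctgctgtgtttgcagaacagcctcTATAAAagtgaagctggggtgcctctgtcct
Myh8, chr11:67276874-67277123, plus strand: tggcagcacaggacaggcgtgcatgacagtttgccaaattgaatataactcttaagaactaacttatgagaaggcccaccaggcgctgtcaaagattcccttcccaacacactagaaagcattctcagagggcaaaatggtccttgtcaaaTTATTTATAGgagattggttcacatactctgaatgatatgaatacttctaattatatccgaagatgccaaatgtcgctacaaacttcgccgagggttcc
Myh7, chr14:54994550-54994799, minus strand: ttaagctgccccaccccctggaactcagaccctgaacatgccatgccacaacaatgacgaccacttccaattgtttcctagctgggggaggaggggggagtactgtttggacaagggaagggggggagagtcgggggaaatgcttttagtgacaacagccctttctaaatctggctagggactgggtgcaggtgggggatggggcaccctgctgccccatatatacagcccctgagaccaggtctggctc

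In the Myh4 window TATAAA began at −213 and at −31 from the start, the CArG box at −104 and the MEF2 site at −182. The Acta1 window held TATAAA at −7 and a CArG box at −73, and the Myh8 window a MEF2 site at −99. Neither of the 2 windows listed for Myh7 held any of these 3 motifs. E-box letters, CANNTG on either strand, began at −221 and −67 in Myh4, at −238 and −221 in Acta1, at −32 in Myh8, and at −183 and −62 in the Myh7 window printed. Of the 32851 windows of this length in the RefSeq table, 7.59% held TATAAA, 66.2% CANNTG, 1.47% a CArG box and 2.92% a MEF2 site. Of the 100 brightest genes 80 matched the table, with 113 windows, of which 5.31% held TATAAA, 69.0% CANNTG, 6.19% a CArG box and 7.08% a MEF2 site. For the 3839 windows of genes above background the shares were 3.72%, 55.8%, 1.43% and 1.82%. These shares are counts, and their difference was not tested. A match of letters is a description and not a binding site, and TATAAA can overlap the MEF2 motif.

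Families of related genes were described by which members were above background. Over 48 such families 181 of 382 measured genes were above background, or 47.4%, against 17.8% of all rows. The lists were written for muscle, so this difference follows in part from the choice. The families are taken in turn, from the sarcomere to energy supply and signalling.

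Among myosin heavy chains, the motors of the thick filament, 5 of 13 genes were above background. Myh2, which encodes the IIa myosin, was at 18.76, 19.01 and 17.88 on control replicates 1, 2 and 6. It varied by 1.13 on the log2 scale, beside 0.26 for Myh1. Myh4 and Myh8 lay near the ceiling, where the arrays stopped separating genes, so their ranges are not compared. Myh7, the type I slow myosin, was at 10.56, 10.96 and 9.65 and exceeded the limit on replicates 1 and 2 only. Embryonic Myh3 (7.02 ± 0.20), cardiac Myh6 (4.86 ± 0.38) and extraocular Myh13 (6.20 ± 0.26) were below it on all 3. Myh8, the neonatal myosin, gave 19.90, 19.93 and 19.93, at the ceiling of the array. The myosin heavy chain genes are near-identical over long stretches, and whether the probes of Myh8 also take up Myh4, Myh1 or Myh2 transcripts was not tested, so the signal of Myh8 is not read as neonatal myosin. Nonmuscle Myh9 was above background at 12.18 ± 0.32.

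The myosin light chains Myl1 and Mylpf, the essential and regulatory chains of fast fibers, were near the ceiling. Myl4, the embryonic and atrial chain, was still above background at 11.33, 10.98 and 11.08. Myl2, the regulatory chain of slow fibers and ventricle, was at 12.03, 13.18 and 11.63, and Myl3, the essential chain of the same fibers, at 10.30, 10.82 and 9.77. Both were highest on replicate 2 and lowest on replicate 6, and Myl3 was below the limit on replicate 6. Atrial Myl7 was not above background on any array.

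Actc1, the cardiac actin that fetal skeletal muscle also makes, was at 17.83, 17.26 and 18.15. Of 5 actins only enteric Actg2 was below the limit, at 6.46 ± 0.15. The troponins, which pass the calcium signal to the thin filament, differed by fiber type. Fast Tnni2 (18.92 ± 0.03), Tnnc2 (18.35 ± 0.16) and Tnnt3 (18.76 ± 0.14) were above background on every array. Slow Tnnt1 was above it too, at 11.31 ± 0.06, slow Tnnc1 on replicates 1 and 2 only at 9.99 and 10.39, and slow Tnni1 on none, at 8.24, 9.32 and 8.18. The cardiac troponins Tnnt2 and Tnni3 were on none. Of the myosin binding proteins C, slow Mybpc1 (18.22 ± 0.07) and fast Mybpc2 (16.84 ± 0.22) were both above background, whereas cardiac Mybpc3 was at 3.30 ± 0.05.

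**Figure D2:**
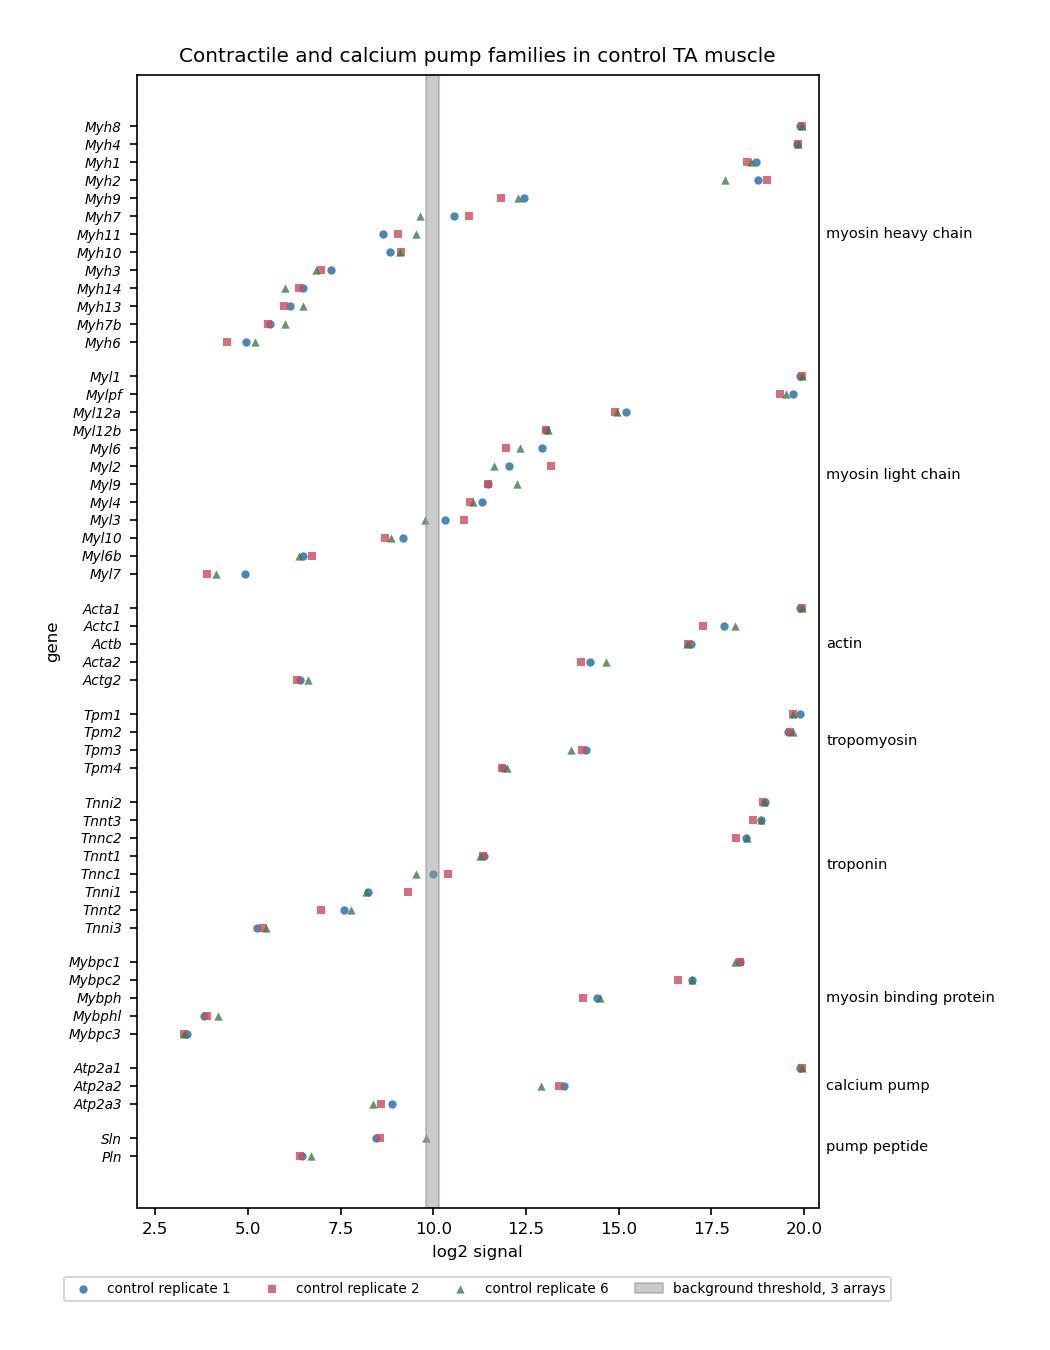
Log2 signal (x axis) of each measured gene (y axis, grouped by family) on control replicates 1, 2 and 6, with the background limits of the 3 arrays as a grey band. The fast myosins Myh4, Myh1 and Myh2 and fast troponins lie at 17.9 or higher, and so does slow Mybpc1. Cardiac Actc1 lies near them, partly below 17.9, and Myh7, Myl3 and Tnnc1 cross the band.

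At the Z-disc, where thin filaments are anchored, Actn3 (18.91 ± 0.08), the alpha-actinin of fast fibers, and Actn2 (18.10 ± 0.36) were above background and Actn1 was not. The calsarcins Myoz1 (16.29 ± 0.14) of fast fibers and Myoz2 (17.06 ± 0.09) of slow fibers and heart were both above it. The giant proteins Neb and Ttn were at 18.36 ± 0.08 and 18.20 ± 0.12, and of the myomesins of the M-band Myom1 and Myom2 were above background and Myom3 was not.

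Calcium handling genes were largely the forms of fast muscle. Atp2a2, which encodes SERCA2 of slow fibers, was at 13.53, 13.40 and 12.91, and Atp2a3 was not above background. Sln, which encodes sarcolipin, an inhibitor of the pump, was at 8.45, 8.55 and 9.80 and reached the limit only on replicate 6, barely. Pln, which encodes phospholamban, was on none at 6.53 ± 0.16. Of the release channels Ryr1 (15.93 ± 0.04), the skeletal form, was above background and Ryr2, the cardiac form, was not (6.77 ± 0.32). Casq1 was at 18.93 ± 0.13 and the slow and cardiac form Casq2 at 13.37 ± 0.29. Of the voltage sensor of the T-tubule, the skeletal subunits were above background, with Cacna1s (15.36 ± 0.27), Cacnb1 (15.34 ± 0.12), Cacng1 (16.31 ± 0.28), Cacna2d1 (12.56 ± 0.24) and its partner Stac3 (13.10 ± 0.04), and with Cacng6 at 12.48 ± 0.19. The 9 other calcium channel genes of the list were below the limit.

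Genes of the nerve contact, which only a small part of each fiber carries, passed at about the share of all rows. Of 11 genes 2 were above background on all arrays, or 18.2%, beside 17.8% of all rows. They were Chrnb1, a subunit of the acetylcholine receptor (11.57 ± 0.38), and Ache, which encodes acetylcholinesterase. Ache was at 11.01 ± 0.11 on 1 of its 2 rows and at 9.07 ± 0.11 on the other, which did not pass. Chrne, the adult receptor subunit, was at 9.48, 9.79 and 10.16 and passed on replicate 6 alone, and Chrng, the fetal subunit it replaces, was at 4.96 ± 0.25.

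Enzymes of energy supply were present mainly as 1 muscle form each. Creatine kinase, which rebuilds ATP from phosphocreatine, was present as Ckm at 18.27, 17.94 and 18.23 and as mitochondrial Ckmt2 at 16.12, 16.11 and 15.86. Brain Ckb (7.90 ± 0.08) and ubiquitous mitochondrial Ckmt1 (3.87 ± 0.23) were below the limit on every array. Along glycolysis, Hk2, Pfkm, Aldoa, Gapdh, Pgam2, Eno3, Pkm and Ldha were each above background on all 3 arrays. Their alternatives Pfkl, Pfkp, Aldoc, Pgam1, Eno2, Pklr, Ldhb and Ldhc were not on any, and Hk1, at 10.76, 10.14 and 10.32, missed the limit only on replicate 2.

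Glycogen is the fuel store of fast fibers. Pygm, the muscle phosphorylase that releases glucose from it, was at 19.49, 19.45 and 19.41, whereas liver Pygl (7.31 ± 0.22) and brain Pygb (6.28 ± 0.38) were not above background. Phosphorylase kinase, which switches it on, was represented by the muscle subunits Phka1 and Phkg1 and the shared Phkb, and not by the liver subunits Phka2 and Phkg2. Gys1, muscle glycogen synthase, was at 16.15, 16.76 and 16.17 and liver Gys2 not above background. For sugar entry Slc2a4, the insulin-regulated GLUT4, was above background at 12.94 ± 0.12 and Slc2a1, Slc2a2, Slc2a3, Slc2a5 and Slc2a12 were not. The lactate exporter Slc16a3, which fast fibers use, was at 16.68 ± 0.24, and Slc16a1, the importer of oxidative tissue, at 11.70 ± 0.27.

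The pyruvate dehydrogenase kinases, which hold back the entry of pyruvate into the citric acid cycle, were present as Pdk1 (12.33 ± 0.15), Pdk2 (16.66 ± 0.12) and Pdk4, and Pdk3 (4.87 ± 0.75) was not above background. Pdk4 is taken up with the variable genes. Ppargc1a, the coactivator that drives mitochondrial growth, was at 13.62, 13.89 and 13.90 and its relative Ppargc1b at 11.23, 11.80 and 11.55. Both were above background on every array.

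In mitochondria, cytochrome oxidase carried both the heart-muscle and the general forms of its subunits. Cox6a2, Cox7a1 and Cox8b, the heart and muscle forms, were at 19.11 ± 0.03, 16.83 ± 0.12 and 15.69 ± 0.14. The general forms Cox6a1 (12.71 ± 0.53), Cox7a2 (14.51 ± 0.27) and Cox8a (14.21 ± 0.11) were above background as well. Slc25a4, which encodes the muscle ATP carrier, was at 18.77 ± 0.07. For fat entry into mitochondria Cpt1b, the muscle form, was at 14.10, 14.93 and 14.14, and liver Cpt1a and brain Cpt1c were not above background. Fabp3, the muscle fatty acid binding protein, was at 17.31, 18.10 and 17.37, and both Cpt1b and Fabp3 were highest on replicate 2.

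**Figure D3:**
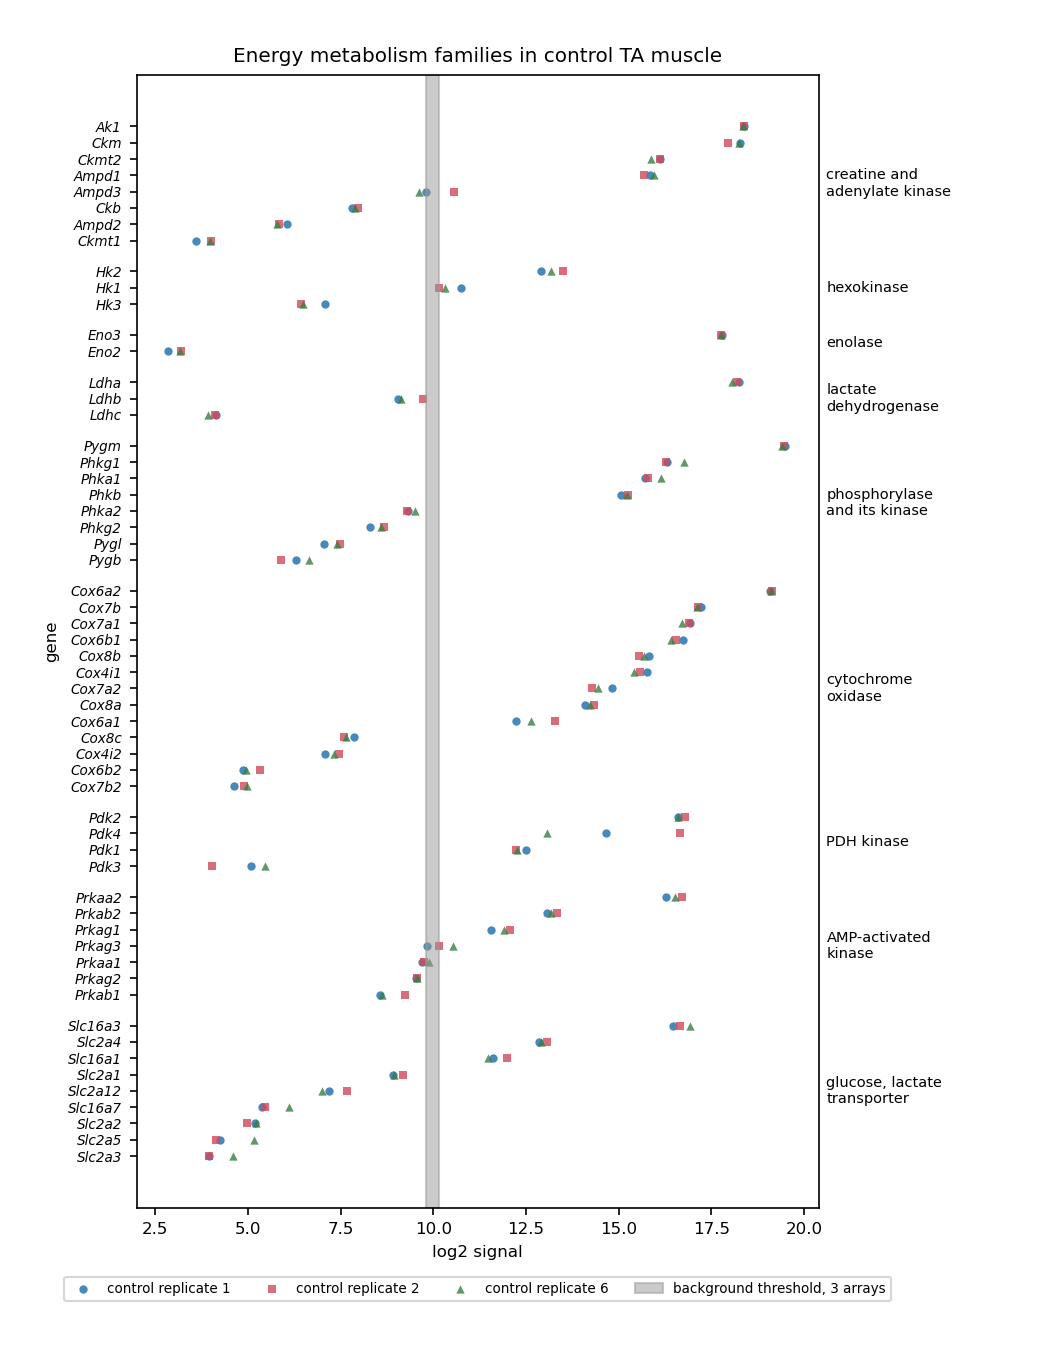
Log2 signal (x axis) of each measured gene (y axis, grouped by family) of energy metabolism on control replicates 1, 2 and 6, with the background limits as a grey band. Pdk4 spreads from 13.08 on replicate 6 to 16.66 on replicate 2.

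Signalling families were used in part. AMP-activated kinase, which senses low energy, was seen in its muscle subunits Prkaa2 (16.50 ± 0.22), Prkab2 (13.19 ± 0.14) and Prkag1 (11.85 ± 0.27). Prkag3, the subunit of fast glycolytic fibers, was at 9.84, 10.16 and 10.53 and missed the limit on replicate 1. Of the calcineurin and calmodulin kinase genes, which read calcium signals, 10 of 12 were above background, Camk2a, Ppp3ca and Ppp3cb among them. Of nuclear receptors 3 of 17 passed on all arrays, or 17.6%, beside 17.8% of all rows. They were Nr4a1, Thra and Rora, the last by 2 of its 3 rows.

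Growth factors of muscle were plainly present at P28. Igf1 was at 14.67, 14.46 and 14.69, and the imprinted fetal growth factor Igf2 at 16.45, 16.84 and 16.77. Mstn, which encodes myostatin, the inhibitor of muscle growth, was at 12.18, 11.60 and 12.67 and was lowest on replicate 2. Its receptor genes Acvr1b (10.78 ± 0.31) and Acvr2a (10.41 ± 0.01) were above background, and Acvr2b and the antagonists Fst and Fstl3 were not. Of 7 genes for FGF receptors and their cofactors 0 were above background on all arrays, and Fgfrl1 was on 2. The insulin receptor gene Insr was at 13.34 ± 0.08, and Igf1r was below the limit.

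Of the myogenic regulatory factors, which switch on muscle genes, only Myf6, which encodes MRF4 of mature fibers, was above background, at 12.45, 12.55 and 12.16. Myog (9.73, 8.47 and 9.58), Myod1 (7.33, 6.87 and 8.10) and Myf5 (4.63 ± 0.47) were not. Mef2c, Mef2a and Mef2d were all above it and Mef2b was not. Factors tied to the fast program in mice, Tbx15 (13.78 ± 0.17), Sox6 (13.52 ± 0.26), Maf (11.15 ± 0.23) and Eya1 (11.52 ± 0.07), were above background.

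Myomaker itself was above background on every control array. Mymk was at 11.82 and 11.61 on the LacZ/fl replicates 1 and 6 and at 12.03 on the fl/fl replicate 2. Replicate 2 differed from the other pair by 0.31 on the log2 scale (standard error 0.65, adjusted p = 0.973 from limma), too wide an error to say that the alleles gave alike levels. Mymx, whose small product completes fusion, was not above background, at 6.33 ± 0.31.

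Other cell types left unequal traces. In whole muscle, fewer cells of a type and less RNA per cell cannot be told apart. Over the 17 marker lists other than those of fast and slow fibers, 28 of 120 measured genes were above background, or 23.3%, beside 17.8% of all rows. Lists for satellite cells, lymphocytes, neutrophils, mast cells, neurons, keratinocytes, hepatocytes, cartilage and bone, and erythroid cells had 0 members above it on all arrays.

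Of the 8 satellite cell markers Pax7, the defining factor of these stem cells, was at 5.16, 5.13 and 4.64. Myf5, Calcr and Chrdl2 were likewise far below the limit, and Sdc4, a surface proteoglycan, came closest at 9.30 ± 0.06. None of the 8 gave a signal well above background on any control array, so their levels are not ranked.

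Fibroadipogenic cells, the matrix-making cells between fibers, were the clearest of the other types, with 7 of 8 measured markers above background. Dcn, which encodes decorin, was at 16.67, 16.20 and 16.94, and Col1a1, a chain of collagen I, at 16.31, 15.95 and 16.68. Only Pi16, a marker of a subset, was below the limit. All 8 markers were lowest on replicate 2, and so were 10 of 15 collagen genes and 8 of 9 macrophage markers.

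Endothelium came next, with 6 of 9 markers above background. Cdh5, the cadherin of vessel walls, was at 15.24, 15.24 and 15.14, and Pecam1 at 13.30, 13.29 and 13.47. Vwf and Cldn5 were below the limit. Of mural cells Rgs5 (14.57, 15.34 and 15.32) of pericytes and Acta2 of smooth muscle were above background, but Myh11, the smooth muscle myosin, and Cspg4 were not.

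Cardiac genes were mostly below the limit. Of the 7 cardiomyocyte markers 2 were above background, or 28.6%, beside 17.8% of all rows. They were Actc1 and Myl4, which young skeletal muscle also uses. Myh6, Tnni3 (5.38 ± 0.12) and Nppa (4.69 ± 0.18), the atrial natriuretic peptide gene, were not above it.

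Immune cells were little seen. Of the 9 macrophage markers 2 were above background, or 22.2%, beside 17.8% of all rows. They were Mrc1 (13.53, 12.57 and 12.75), found on resident macrophages, and Lyz2 (11.03 ± 0.29), and Csf1r, Adgre1 and the C1q genes did not pass. Among the Schwann cell markers Pmp22, a myelin gene that other cells also use, passed on all arrays and Mbp, another myelin gene, on replicates 1 and 6. Sox10, which defines the lineage, was below the limit. Of 7 tendon markers 4 passed, Fmod, Thbs4, Tnmd and Kera, and the tendon factors Scx and Mkx did not.

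**Figure D4:**
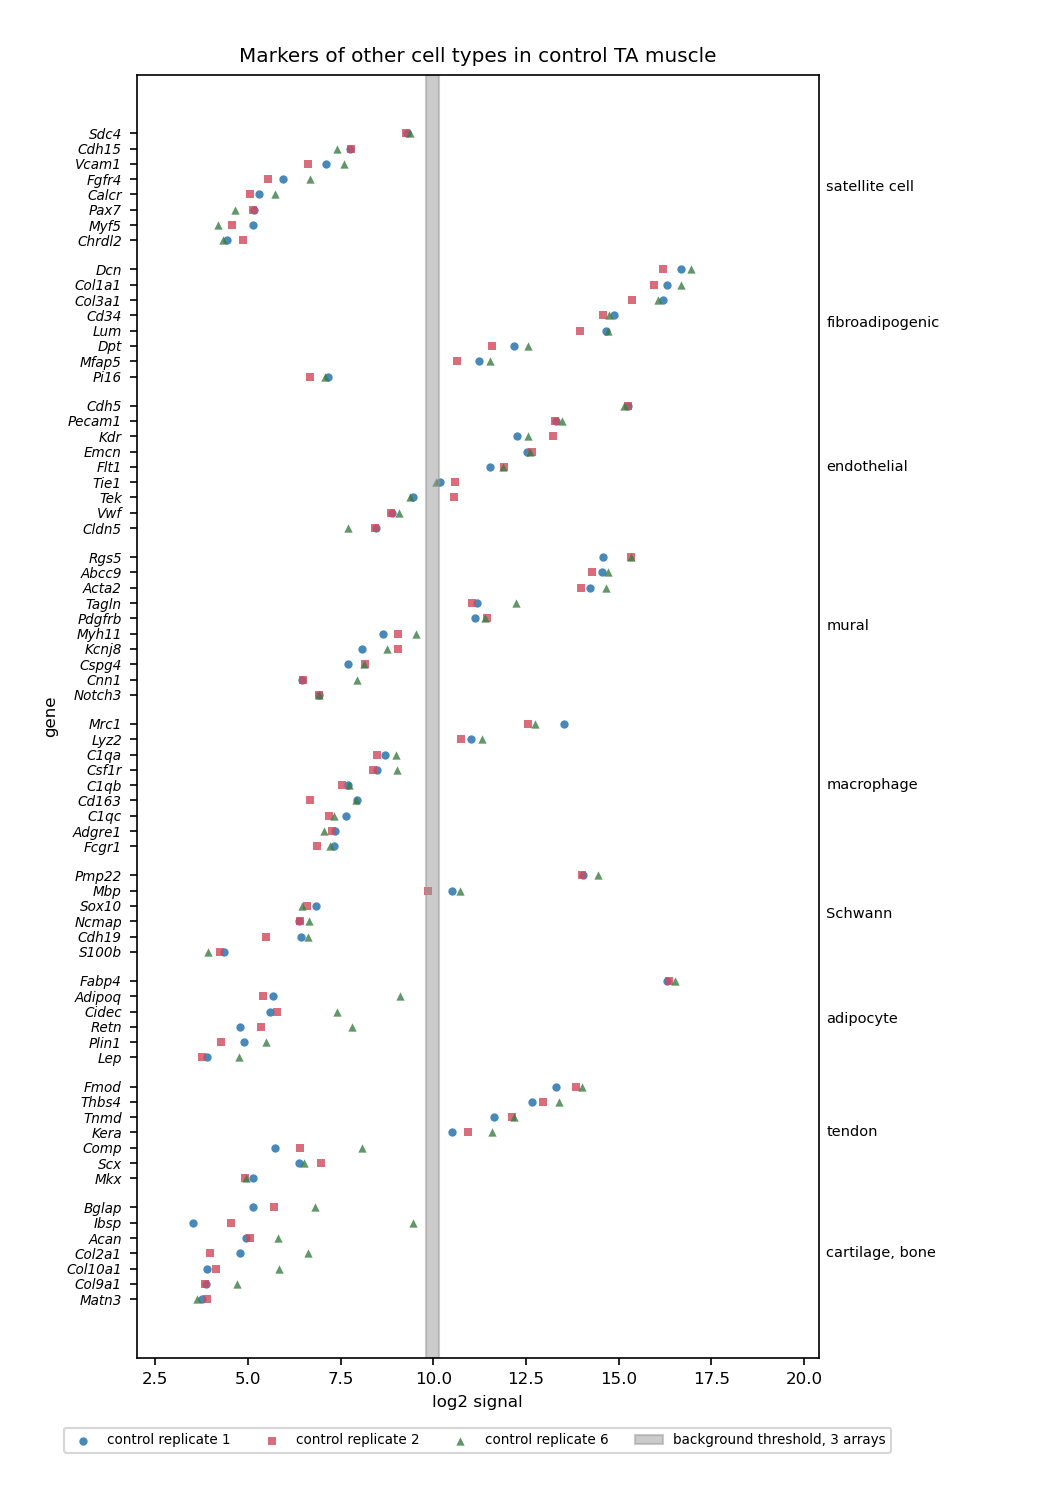
Log2 signal (x axis) of marker genes of other cell types (y axis, grouped by type) on control replicates 1, 2 and 6, with the background limits as a grey band. Fibroadipogenic and endothelial markers lie mostly to the right of the band and satellite cell markers to the left, and on replicate 6 Ibsp at 9.44 and Adipoq at 9.09 stand apart from replicates 1 and 2.

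Replicate 6 had higher signals of bone and fat genes than the other control arrays, though 0 of the 7 cartilage and bone markers and 1 of the 6 adipocyte markers, Fabp4, were above background on all arrays. Ibsp, which encodes bone sialoprotein, was at 3.53, 4.54 and 9.44, and 6 of the 7 cartilage and bone markers were highest on replicate 6. Over that list the mean signal was 4.28, 4.46 and 6.12 on replicates 1, 2 and 6. Adipoq, which encodes adiponectin of fat cells, was at 5.69, 5.40 and 9.09, and all 6 adipocyte markers were highest on replicate 6, with list means of 6.86, 6.82 and 8.51. Genes outside the lists, chosen after their values were seen, went the same way. Mmp13, a collagenase of bone and cartilage, was at 5.33, 4.71 and 11.08, and Acp5, which encodes the acid phosphatase of osteoclasts, at 5.72, 5.87 and 11.59. Ucp1, the uncoupling protein of brown fat, was at 3.60, 3.19 and 7.24, below the limit throughout. The Mup genes, known from liver, are near-identical copies that a probe may not separate, and Mup19 stood at 7.96, 10.59 and 14.89. On the 6 Δ1w and Δ2w arrays Ibsp lay at 3.67 to 4.57 and Acp5 at 5.98 to 7.08, below replicate 6. The fat markers were not particular to replicate 6, since Adipoq was at 9.56 and Retn, another adipocyte marker, at 8.58 on Δ1w replicate 5, against 9.09 and 7.80 on control replicate 6. The part of these signals in the other values of replicate 6 was not tested.

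Y-linked genes also set replicate 6 apart. Eif2s3y was at 11.36, 10.91 and 3.59, and Uty and Kdm5d were lowest on the same array. Δ1w replicate 8 and Δ2w replicate 4 had Eif2s3y at 4.24 and 3.95, and the other 6 arrays of the series had it at 9.67 to 11.61. Each group held 1 array of the low kind. Sex is not recorded in the labels, and the X-linked partners Kdm6a (10.85, 11.46 and 12.71) and Eif2s3x (13.46, 13.35 and 14.55) were highest on replicate 6.

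Most genes above background differed little among the control mice. Of the 3952 rows above background 131, or 3.31%, differed by at least 1 on the log2 scale between the highest and the lowest control array, and 114 of these carry a symbol. These values chose the rows, so they are a description without a test. Rps14, Mpv17 and Retsat lay just inside this limit, with ranges of 1.003, 1.003 and 1.001, and Stxbp4, Mgp and Stom just outside, at 0.998, 0.995 and 0.987. Replicate 2 was the array apart in the most rows, higher in 45 and lower in 24. Replicate 1 stood apart as the higher array in 24 rows and the lower in 8, and replicate 6 in 20 and 10. Without replicate 2 the count was 47, without replicate 6 it was 68 and without replicate 1 it was 74.

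Pdk4, the kinase that holds pyruvate back from the citric acid cycle when fat is burned, was at 14.66, 16.66 and 13.08. It had the largest SD of the rows above background with a symbol, 1.80. Its range of 3.58 on the log2 scale ran from replicate 6 to replicate 2. Acot2, a mitochondrial thioesterase of fat oxidation, was at 11.03, 12.94 and 11.09, and Ucp3, the uncoupling protein of muscle mitochondria, at 12.89, 13.42 and 11.85. Slc25a20, which carries acylcarnitines, was at 10.86, 11.99 and 10.96, and Slc27a1, a fatty acid transporter, at 11.63, 12.88 and 11.69. All 5 were highest on replicate 2, and Slc25a20 and Slc27a1, which lie outside the 20 genes of largest SD, were chosen after their values were seen. The lists of fat genes as a whole did not share this. Of 14 genes of fatty acid binding and uptake 5 were highest on replicate 2, and of 6 genes of the carnitine palmitoyltransferase and carboxylase list 3 were.

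Targets of glucocorticoids, the stress hormones that also steer fuel use, were low on the same array. Sgk1, a kinase of this response, was at 14.74, 12.98 and 14.76, and Tsc22d3, which encodes GILZ, at 13.96, 12.27 and 13.73. Fkbp5, a chaperone of the receptor, was at 12.35, 10.59 and 11.56, and Mt2, a metallothionein, at 13.50, 11.79 and 14.42. Errfi1, a brake on EGF receptors, was at 12.10, 10.34 and 11.95. Of 15 glucocorticoid targets measured 12 were lowest on replicate 2, while Pdk4, which is on the same list, was highest there. A further list, of slow fiber genes, was lowest on replicate 6 in 8 of 8 members, with a list mean of 11.27, 11.68 and 10.83.

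Several of the most variable genes were lowest on replicate 6. Csrp3, which encodes the muscle LIM protein of the Z-disc, was at 12.56, 13.21 and 10.54, and Ankrd2, a stretch-responsive ankyrin repeat protein, at 14.80, 15.15 and 12.79. Fhl1, a LIM protein of the sarcomere, was at 18.72, 18.94 and 17.88, and Myh2 and the small heat shock gene Hspb7 (18.28, 18.73 and 17.68) were lowest there too, Fhl1 and Hspb7 being named after their values were seen. Ankrd1, a relative of Ankrd2 that also responds to stretch, went the other way at 8.83, 9.95 and 10.86. Scd1, a desaturase of fat synthesis, was the reverse at 11.25, 11.38 and 14.17, on the array where adipocyte markers were highest, and their part in it was not tested. Slc25a25, a calcium-regulated mitochondrial carrier, was at 10.97, 10.37 and 12.34. Lmod2, which lengthens thin filaments, was highest on replicate 1, at 14.11, 13.14 and 12.42.

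Histone genes were highest on replicate 1. H2ac24 was at 12.49, 10.63 and 11.41, and H2ac15 at 12.05, 10.47 and 10.50. All 13 histone rows among the 131 variable rows were highest on replicate 1, as were 11 of 14 proliferation markers, although 0 of the 14 were above background on all arrays and 13 were on none. Mki67, a protein of dividing cells, was at 10.85, 9.65 and 9.45. Histone copies are near-identical in their coding parts and may share probes, so the 13 rows are not 13 separate readings, and rows of H3c14 and H3c15 held the same values. Rmrp, a noncoding RNA of mitochondrial and ribosomal RNA processing, was at 16.73, 15.32 and 16.93.

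Of 17 clock genes 6 had a range of at least 1, of which 1 was above background on all arrays. The median range over the list was 0.70. Dbp, an output of the circadian clock, was at 16.12, 16.25 and 16.99, and Bhlhe40, a repressor within it, at 13.39, 14.20 and 14.79, the 1 clock gene above background with a range over 1. Per3 was at 10.45, 9.93 and 11.49 and missed the limit on replicate 2. No source used here gives the hour of dissection. Of 18 immediate early genes only Nr4a1 was above background on all arrays, Fos was at 5.79 ± 0.30, and 0 of 13 interferon response genes passed.

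**Figure D5:**
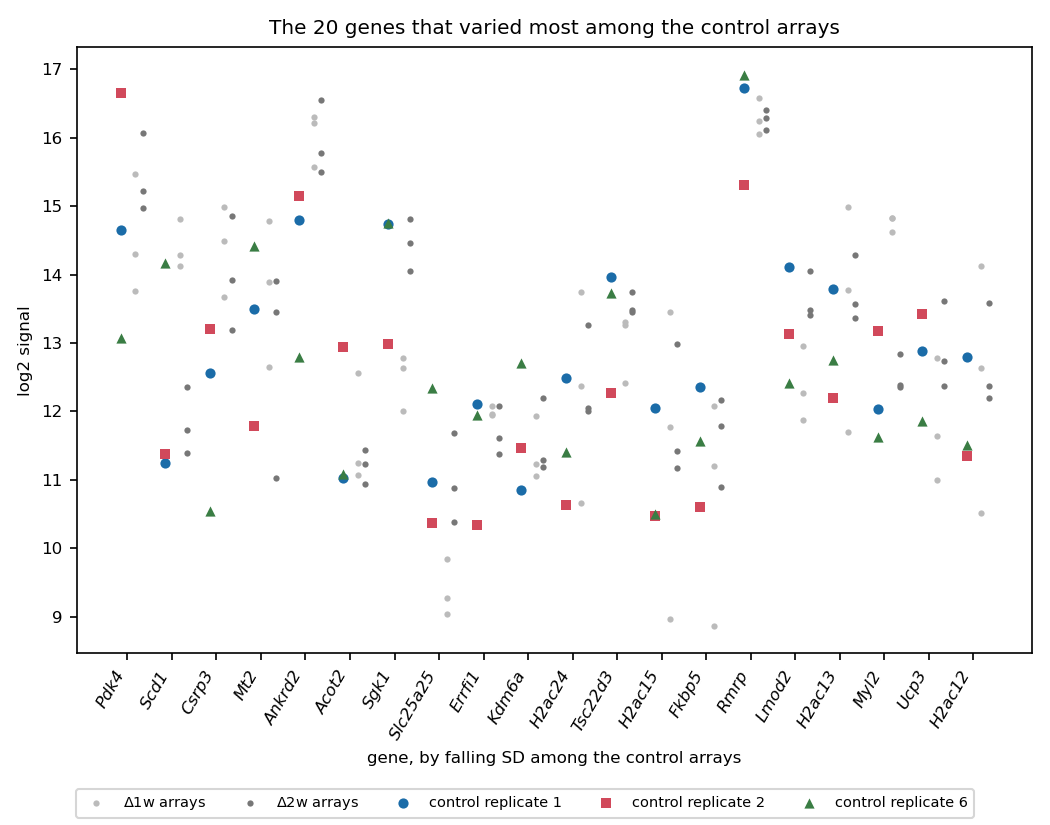
Log2 signal (y axis) of the 20 genes with the largest SD among the control arrays (x axis) on control replicates 1, 2 and 6, with the 3 Δ1w and 3 Δ2w arrays as grey points beside them. Pdk4 and Acot2 are highest and Sgk1, Tsc22d3 and Fkbp5 lowest on replicate 2, and H2ac15 spreads over 4.49 on the Δ1w arrays against 1.58 on the control arrays.

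The genes that varied among control mice were then read on the 6 arrays that had not chosen them. Of the 131 rows 24, or 18.3%, differed by at least 1 among the 3 Δ2w arrays, beside 1.52% of all 3952 rows above background. Among the 3 Δ1w arrays 44 did so, or 33.6%, beside 6.20%. Both groups were met by 17 rows. Histone rows, which may share probes, are among them, such as H2ac15 with ranges of 1.81 within Δ2w and 4.49 within Δ1w muscle. The rows counted are therefore not as many separate readings. Mt2 varied by 2.88 within Δ2w and by 2.13 within Δ1w muscle, Csrp3 by 1.68 and 1.32, and Pdk4 by 1.10 and 1.72. Sgk1 and Tsc22d3 varied by under 1 in both groups, at 0.76 and 0.78, and 0.29 and 0.89.

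Control replicate 2 was set against replicates 1 and 6 in a model of all 9 arrays, which lends the single fl/fl control the spread of the other groups. At an adjusted p under 0.05 from limma 0 of 22206 rows were called, or 0%, and 1558 had an unadjusted p under 0.05. Sgk1 differed by −1.77 on the log2 scale, as replicate 2 minus the others (standard error 0.37, adjusted p = 0.387 from limma), and Pdk4 by 2.79 (standard error 0.74, adjusted p = 0.555 from limma). Neither difference passed. Leaving out replicate 1 sets 1 array against 1 with the spread of the other groups, and the 5 rows then called, Ibsp, Mmp13, Acp5, Ucp1 and 1 row without a symbol, restate the high values of replicate 6 given above and are no separate evidence.

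Against the mean of Δ1w and Δ2w muscle, 42 rows were higher in control muscle (0.189% of 22206) and 102 lower (0.459%) at an adjusted p under 0.05 from limma. Of these 144 rows 53 were above background on all control arrays, or 36.8%, beside 17.8% of all rows, and 77 were above it on no control array, or 53.5%, beside 78.2% of all rows. Mymk led the higher genes, with a mean of 11.82 ± 0.21 over control arrays, 8.14 ± 0.77 over Δ1w arrays and 7.59 ± 0.85 over Δ2w arrays, a difference of 3.96 (standard error 0.36, adjusted p = 0.00115). Fgfr4, an FGF receptor of muscle progenitors, was at 5.96, 5.55 and 6.69 in the controls and at 3.77 to 4.65 on the other 6 arrays, and Cdkn1c, an imprinted inhibitor of the cell cycle, at 8.44, 8.24 and 8.43 against 6.14 to 7.01. Both were below background throughout. The other 7 of the 10 largest were Gpr50, Mettl21e, Asb15, Foxp2, Rab6b, Dpp6 and Fndc3c1, with differences of 1.36 to 2.69. Gpr50, Foxp2, Rab6b, Dpp6 and Fndc3c1 were above background on 0 control arrays, and Mettl21e and Asb15 on 2. None of the 7 overlapped between control and other arrays, which was the case with control higher in 2.84% of all rows.

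Among the genes lower in control muscle, Npr3, the clearance receptor of natriuretic peptides, was at 11.04, 10.04 and 10.72 in the controls and at 12.72 to 14.46 on the other 6 arrays. Tnfrsf12a, the receptor of the cytokine TWEAK, was at 10.08, 10.21 and 10.42 against 11.55 to 13.46. Tspan9, a tetraspanin, was at 13.12, 12.43 and 12.94 against 14.18 to 15.56. The other 7 were Tceal7, Fam171b, Cilp, Ctnna3, BC049352, Atp1b4 and Mfhas1, with differences of −2.99 to −1.85. Fam171b, Ctnna3, BC049352, Atp1b4 and Mfhas1 were above background on 0 control arrays, Cilp on 1, and Tceal7 and Npr3 on 2. These 10 genes did not overlap between control and other arrays either, as held with control lower for 3.21% of all rows.

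Of the 608 list members measured 16 were called, or 2.63%, beside 0.648% of all 22206 rows. The lists were chosen with earlier results of these data known. Their members were also more often above background, 243 of 608 beside 3952 of 22206 rows. The shares called are therefore counts, and their difference was not tested. The called members included 0 genes of the myosin, actin, troponin, tropomyosin, enolase and phosphorylase lists. Of the calsarcins, Myoz2 was lower in control muscle, at −1.08 on the log2 scale (standard error 0.16, adjusted p = 0.00982 from limma) and Myoz3 higher, at 0.86 (standard error 0.14, adjusted p = 0.015 from limma). Of the 8 slow fiber genes 0 were called, with a list median of −0.87 beside 0.000568 over all rows. Myl2 came nearest, at −1.36 (standard error 0.28, adjusted p = 0.0551 from limma). Its mean was 12.28 ± 0.80 over control arrays, 14.76 ± 0.12 over Δ1w arrays and 12.53 ± 0.27 over Δ2w arrays. The gap of Myl2 thus lay mainly in Δ1w muscle, which a contrast with the mean of both groups dilutes. The number of calls depended on each control mouse, and 62, 48 and 30 rows were called without replicate 1, 2 or 6. Within the name prefix that replicates 1 and 6 share with Δ2w muscle only Npr3 was called (adjusted p = 0.0449 from limma). The Δ1w arrays share no prefix with the controls, so they could not be compared in this way.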

How the data were processed

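Total RNA of 9 tibialis anterior muscles was hybridised to 9 Clariom S Mouse arrays with the GeneChip 3′ IVT Pico kit. The authors deposited log2 signals from the sst-rma method (Signal Space Transformation followed by Robust Multi-Array Average), which normalizes across arrays, and the submitters' processing notes name the Affymetrix Expression Console. No source used here states the genome build of the annotation. All 9 columns were mapped to samples, and 0 columns were left unused. No depth exists for arrays, and 3 arrays per group limit the precision. Replicates are separate mice.

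Groups were taken from the labels. A row above the 95th percentile of the negative control rows on all 3 control arrays was called above background, and a row above background with a range of at least 1 was called variable. Both are descriptions without p-values. Control muscle was compared with the mean of Δ1w and Δ2w muscle by lmFit and eBayes in limma 3.58.1 (R 4.3.3) over 22206 rows with Benjamini-Hochberg adjustment at 0.05. Control replicate 2 was compared with replicates 1 and 6 in a fit of 4 groups. In 5 sets of data simulated for the first comparison, with 200 of 22206 rows changed, 61% of changes of 1 and 97% of changes of 2 on the log2 scale were recovered, with a mean of 8.8 false calls. Python 3.11.15 and matplotlib 3.10.9 were used for the figures.

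The genes named were the 20 brightest, members of the isoform families and cell type lists, the 20 with the largest SD among the control arrays, programme genes with a range of at least 1, and the 10 largest called differences in each direction. Genes named outside this rule are marked where they appear. The members and the lists were chosen with earlier results of these data known. Thresholds, normalization, filters, variance models, batches and left-out arrays were varied. Promoters were matched by symbol to RefSeq windows of GRCm38.p6.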

Additional observations from a re-analysis of the deposited data

How the results depend on the processing

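The number of rows above background followed the threshold: 666 rows passed the 99th percentile of the negative control rows in place of the 3952 at the 95th, and of the list members 109 in place of 243. At the 90th percentile 1 receptor row passed, Olfr558, where 0 had. Variable rows numbered 1535 with no filter on low values and 12 with the 99th percentile, against 131, and 47 to 74 when 1 control array was left out. With no filter 236 of the 1535 variable rows also varied within Δ2w muscle and 379 within Δ1w muscle, in place of 24 and 44 of 131. For control against the mean of Δ1w and Δ2w muscle limma called 144 rows, and 226 with a trended and robust variance. With only rows above background in a group tested it called 240, of which 83 were among the 144. Of the 20 genes named from this comparison 9 were in that test, and these kept their call. Of those named as higher in control only Mymk was in it. When 1 array was left out 30 to 294 rows were called, the extremes being without control replicate 6 and without Δ1w replicate 1. Within the name prefix that control and Δ2w muscle share, an alternative chosen after seeing the data, 1 row was called. An unpaired t-test with equal variances set the controls against the other 6 arrays as 1 group. It called 0 rows after Benjamini-Hochberg adjustment and 2277 at an unadjusted p under 0.05. The paper lists unpaired t-tests among its statistics in general, but names the Transcriptome Analysis Console for the arrays. Of the 20 genes named from the comparison of control with the mean of Δ1w and Δ2w muscle, 20 lost their call with this t-test and 19 within the shared prefix. Control replicate 2 against replicates 1 and 6 gave 0 calls, and 5 without replicate 1, where 1 array faced 1 and was assumed to vary like the other groups. The causes were not tested. No value changed sign. No paired analysis was possible because the groups share fewer than 2 replicate numbers. Signals near the ceiling and below the background limit were not ranked between genes.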
